A study of Rattus norvegicus with 6 samples.

Results

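The tumour necrosis factor (TNF) superfamily of ligands and receptors was followed in rat brain tissue around an infarct. Its members were the genes whose probe set carried exactly 1 symbol that begins with Tnfsf or Tnfrsf, or that is Tnf, Lta, Ltb, Ltbr, Fas, Faslg, Cd27, Cd40, Cd40lg or Cd70. This rule found 32 genes among the 14497 genes with such a probe set, 14 ligands and 18 receptors, each with 1 probe set. The levels used are log2 values of 6 Affymetrix whole-transcript arrays, and the base of the logarithm is inferred from their range.

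The rats were male Sprague-Dawley animals. For the stroke, flow in the middle cerebral artery was stopped for a time by raising the vessel on a tungsten hook, and tissue around the infarct was taken 3 d or 14 d later. The naive rats had no stroke, and their tissue is labelled only as healthy brain, with no region given. The young stroke rats were 3 to 4 months old and weighed 290 to 360 g, and the aged ones were 19 to 20 months old and weighed 520 to 600 g. The naive rats were 3 to 5 and 18 to 20 months old. The 6 groups were thus young naive, aged naive, young 3 d, aged 3 d, young 14 d and aged 14 d, and each was 1 array of RNA pooled from 19 young or 23 aged stroke rats or from 15 naive rats. No group had a second array, so the number of arrays limits the precision and no spread between animals can be given.

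TNF superfamily ligands are mostly made as membrane proteins that act in groups of 3, and many are cut from the cell surface into soluble forms. The receptors fall into those with a cytoplasmic death domain, which can recruit Fadd or Tradd and start caspase-driven or Ripk3-driven cell death, and those that bind TRAF adaptors and lead to NF-kappaB. Some receptors only trap a ligand. In the brain, TNF and its receptors are known from microglia, astrocytes, endothelium and neurons, and many of the other pairs are known from signals between lymphocytes and antigen-presenting cells.

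As examples of gene starts, the promoter windows of Tnfrsf1a, Tnfrsf1b, Tnfsf13b and Fas are shown. They are not all the windows of members that rose after stroke. They come from RefSeq, build GRCr8, and run 5′ to 3′ on the strand of the gene, from 250 bases before to 50 after the annotated start. Capitals mark every match, on either strand, to 3 motifs: the NF-kappaB site (kappaB), the interferon-stimulated response element (ISRE, searched as GAAA, any 2 bases and GAAA) and the gamma-activated sequence (GAS, searched as TTCNNNGAA).
Tnfrsf1a, GRCr8 chr4:159836869-159837168, plus strand: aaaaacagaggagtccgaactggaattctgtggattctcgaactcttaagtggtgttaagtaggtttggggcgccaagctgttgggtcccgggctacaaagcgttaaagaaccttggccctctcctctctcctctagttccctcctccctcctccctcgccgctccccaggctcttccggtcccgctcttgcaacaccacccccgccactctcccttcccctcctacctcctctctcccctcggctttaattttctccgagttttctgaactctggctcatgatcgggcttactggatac
Tnfrsf1b, GRCr8 chr5:162387362-162387661, minus strand: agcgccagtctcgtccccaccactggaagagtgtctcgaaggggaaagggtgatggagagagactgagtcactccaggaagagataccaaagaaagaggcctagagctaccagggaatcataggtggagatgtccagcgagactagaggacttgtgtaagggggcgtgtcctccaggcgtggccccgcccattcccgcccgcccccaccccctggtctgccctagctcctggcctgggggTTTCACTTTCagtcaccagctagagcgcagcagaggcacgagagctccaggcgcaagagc
Tnfsf13b, GRCr8 chr16:86194450-86194749, minus strand: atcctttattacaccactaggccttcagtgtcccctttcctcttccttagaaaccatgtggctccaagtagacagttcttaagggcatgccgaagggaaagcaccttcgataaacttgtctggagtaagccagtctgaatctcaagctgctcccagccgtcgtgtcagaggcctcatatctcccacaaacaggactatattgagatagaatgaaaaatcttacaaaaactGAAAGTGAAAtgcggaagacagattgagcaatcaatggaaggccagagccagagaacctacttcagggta
Fas, GRCr8 chr1:241211905-241212204, plus strand: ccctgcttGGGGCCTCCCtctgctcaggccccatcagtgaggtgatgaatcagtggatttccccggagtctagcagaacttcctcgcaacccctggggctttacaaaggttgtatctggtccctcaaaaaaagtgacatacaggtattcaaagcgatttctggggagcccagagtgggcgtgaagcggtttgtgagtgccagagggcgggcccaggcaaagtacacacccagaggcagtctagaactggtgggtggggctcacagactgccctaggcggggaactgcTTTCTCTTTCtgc

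The table of windows held 23 of the 32 members. The ISRE pattern was found in 4 of these 23, namely Tnfrsf1b, Tnfsf13b, Fas and Tnfrsf17, and in 3.92% of 33365 distinct windows of the same length. In Tnfrsf1b the matching run, TTTCACTTTC, ended at the last base before the start, and in Tnfsf13b the run GAAAGTGAAA covered positions -20 to -11 from the start. In Fas the run TTTCTCTTTC lay after the start, at positions 37 to 46, and a kappaB match, GGGGCCTCCC, lay at -242 to -233. The kappaB pattern was found in 5 of the 23 windows (Cd70, Fas, Lta, Ltb and Tnfrsf8) and in 7.53% of all windows, and the GAS pattern in 3 (Lta, Ltb and Tnfrsf12a) and in 8.88% of all windows. No match to any of the 3 patterns was found in the Tnfrsf1a window. None was found in the windows, not shown, of Ltbr, Tnfsf10 and Tnfrsf19, which also rose after stroke. The window of Tnfrsf12a, which rose at 3 d and is not shown, held a GAS match and no ISRE match. In none of the windows shown did matches to different motifs overlap. These matches describe letters in a short window, and no binding was measured.

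Of the 32 members, 20 reached the 40th percentile of their array (between 6.49 and 6.62) on at least 1 array and entered the test. The other 12 stayed below it on all 6 arrays, and they were 7 of the 14 ligands and 5 of the 18 receptors. The tested members comprised 12 that lay above the percentile on every array and 8 that crossed it on some. Cd40, Fas, Tnfrsf9, Tnfsf13b, Tnfsf4 and Tnfsf9 entered through stroke arrays alone, so for them the choice of tested genes favours a difference. Changes were estimated with limma, with age and time after stroke as additive terms. Each change below is given ± its standard error from that fit, with 2 arrays at each time, and its p-value is adjusted over the 10947 genes tested. A gene was called at an adjusted p under 0.05.

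The members that changed at 3 d were all higher than in naive tissue, and most were receptors. Of the 20 tested, 7 were called higher with limma (Tnfrsf1a, Tnfrsf1b, Tnfsf13b, Ltbr, Tnfrsf12a, Cd40 and Fas), whereas 14.4% of all tested genes were called higher and 22.2% in either direction. None was called lower, against 7.87% of all genes, and none of the members was lower at an unadjusted p under 0.05. The median change of the tested members was 0.25, and that of all tested genes was -0.03. With no filter on low values, so that all 32 members could be counted, 7 were called higher and 9.97% of 14497 genes were. The median change was then 0.16 for the 32 members and -0.07 for all genes.

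At 14 d the members called higher were 9 of the 20, against 13.6% of all tested genes, with 25% called in either direction. They were Tnfrsf1a, Tnfrsf1b, Tnfsf13b, Tnfsf10, Cd40, Ltbr, Fas, Tnfsf4 and Tnfrsf19. None was called lower, against 11.4% of all genes (1491 genes were called higher and 1243 lower, or 1336 and 1686 with array medians centred), and none was lower at an unadjusted p under 0.05. The median change was 0.41 for the tested members and -0.05 for all tested genes. Without the filter 8 of the 32 members were called higher, against 9.4% of genes, with medians of 0.21 and -0.05. Among ligands the count was 1 of 7 tested at 3 d and 3 of 7 at 14 d, and among receptors it was 6 of 13 at both times. The receptors were not all the same, with Tnfrsf12a called at 3 d alone and Tnfrsf19 at 14 d alone. These counts do not test a difference between the times, for which no member was called.

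**Figure D1:**
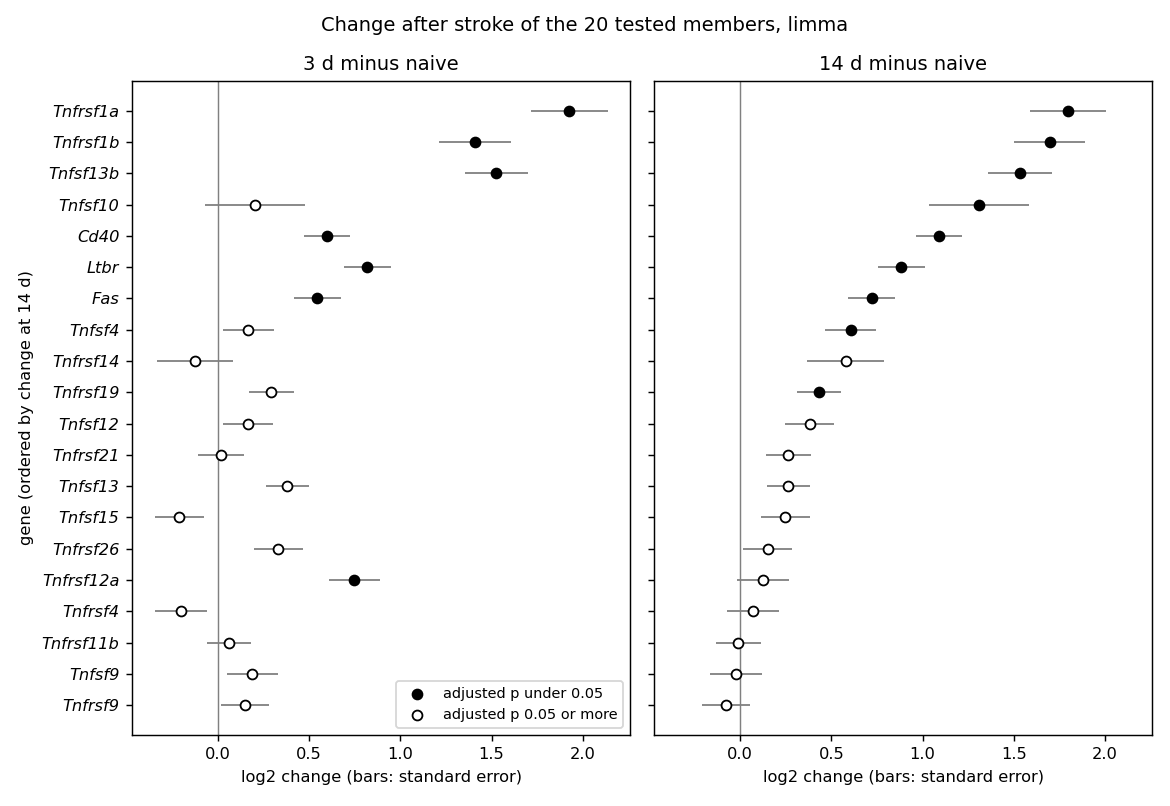
Log2 change against naive tissue at 3 d (left) and 14 d (right) of the 20 tested members, ordered by their change at 14 d; points are limma estimates over 2 arrays per time, bars are standard errors and filled points have a limma adjusted p under 0.05. Tnfrsf1a (1.93 at 3 d and 1.80 at 14 d), Tnfrsf1b and Tnfsf13b lie farthest to the right at both times, whereas Tnfsf10 is filled at 14 d only and Tnfrsf12a at 3 d only.

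These counts depended on single arrays. At 3 d the 7 called members became 3 when the aged naive array was left out (Cd40, Fas, Ltbr and Tnfrsf12a lost their calls) and 4 when either the young naive or the aged 3 d array was (Cd40, Fas and Tnfrsf12a). At 14 d the 9 became 4 when the aged naive array was left out (Fas, Ltbr, Tnfrsf19, Tnfsf10 and Tnfsf4). Tnfrsf1a, Tnfrsf1b and Tnfsf13b were called at both times under all 13 alternatives tried.

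The death domain receptors among the members were Tnfrsf1a, Fas, Tnfrsf10b and Tnfrsf21. Tnfrsf1a encodes the main receptor for soluble TNF and is made by most cell types. Its level was 7.20 on the young and 7.08 on the aged naive array, 9.05 and 9.08 at 3 d, and 8.55 and 9.33 at 14 d. All 4 stroke arrays lay well above both naive arrays, and the aged 14 d array was the highest. The rise was 1.93 ± 0.21 at 3 d, a 3.8-fold change (limma adjusted p = 0.00083), and 1.80 ± 0.21 at 14 d, a 3.48-fold change (limma adjusted p = 0.00116).

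Fas, the receptor of Fas ligand, had levels of 6.17 and 5.97 on the young and aged naive arrays, 6.66 and 6.56 at 3 d and 6.74 and 6.84 at 14 d. The naive and the stroke arrays did not overlap, but the naive values and the aged 3 d value lay below the 40th percentile, where the size of a change is uncertain. The rise was 0.54 ± 0.13 at 3 d (limma adjusted p = 0.0224) and 0.72 ± 0.13 at 14 d (limma adjusted p = 0.00702). The 3 d call ended without any one of the naive or 3 d arrays, with adjusted p between 0.0778 and 0.229, and with trended and robust variances (limma adjusted p = 0.0542), and the 14 d call without the aged naive array (limma adjusted p = 0.106). Its ligand, Faslg, stayed between 6.05 and 6.30 on all 6 arrays, below the 40th percentile.

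Tnfrsf21, a death domain receptor found on neurons and oligodendrocyte precursors, was at 10.01 on both naive arrays, 10.01 and 10.04 at 3 d, and 10.15 and 10.39 at 14 d. Its changes of 0.02 ± 0.13 at 3 d and 0.26 ± 0.13 at 14 d did not pass (limma adjusted p = 0.937 and 0.163). Tnfrsf10b, the death receptor of the ligand encoded by Tnfsf10, ranged from 5.85 to 6.11 and was not tested.

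Among receptors without a death domain, Tnfrsf1b rose most. It encodes the second TNF receptor, which binds membrane-bound TNF well and is known from microglia, endothelium and lymphocytes. It was at 7.16 and 7.40 on the young and aged naive arrays, 8.76 and 8.61 at 3 d and 8.61 and 9.33 at 14 d. Naive and stroke arrays were well apart, and the aged 14 d array was again the highest. The rise was 1.41 ± 0.20 at 3 d, a 2.66-fold change (limma adjusted p = 0.0024), and 1.70 ± 0.20 at 14 d, a 3.24-fold change (limma adjusted p = 0.00109).

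Ltbr, the receptor for membrane lymphotoxin and for the ligand Tnfsf14, was at 7.38 and 7.36 in naive tissue, 8.21 and 8.17 at 3 d and 8.14 and 8.37 at 14 d. Its arrays were close to each other within each condition, and the rise of 0.82 ± 0.13 at 3 d (limma adjusted p = 0.00417) was nearly the same as that of 0.88 ± 0.13 at 14 d (limma adjusted p = 0.00296). Without the aged naive array the adjusted p was 0.0682 at 3 d and 0.0544 at 14 d. The lymphotoxin genes themselves lay below the 40th percentile on all arrays, Lta between 5.17 and 5.90 and Ltb between 5.90 and 6.41.

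Cd40, a receptor on antigen-presenting cells that responds to Cd40lg of activated T cells, was at 6.46 and 6.49 in naive tissue, 6.94 and 7.20 at 3 d and 7.56 and 7.58 at 14 d. Each later time lay above the earlier one in both ages, and both naive values were just below the 40th percentile. It rose by 0.60 ± 0.13 at 3 d (limma adjusted p = 0.0145) and by 1.09 ± 0.13 at 14 d, a 2.13-fold change (limma adjusted p = 0.00111). The difference between the times, 0.50 ± 0.13, did not pass (limma adjusted p = 0.108). The 3 d call ended without either naive array or the aged 3 d array (limma adjusted p between 0.0785 and 0.158). Cd40lg was between 3.38 and 3.78 on all arrays.

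Tnfrsf12a, the receptor for the ligand encoded by Tnfsf12 and a gene known to be switched on in injured and growing cells, was higher at 3 d alone. Its level was 7.05 and 7.14 in naive tissue, 7.80 and 7.89 at 3 d and 7.36 and 7.08 at 14 d. The 3 d arrays stood above the other 4, and the aged 14 d array fell between the naive ones. The rise at 3 d was 0.75 ± 0.14, a 1.68-fold change (limma adjusted p = 0.00879), and the change at 14 d was 0.13 ± 0.14 (limma adjusted p = 0.557). From 3 d to 14 d it changed by -0.62 ± 0.14, which did not pass (limma adjusted p = 0.0696). Without the young 14 d array that change was -0.81, with a limma adjusted p = 0.00861. The rise at 3 d lost its call without either naive array or the aged 3 d array, with adjusted p between 0.0548 and 0.0933. Tnfsf12 was at 8.11 and 7.94 in naive tissue, 8.10 and 8.28 at 3 d and 8.34 and 8.48 at 14 d, and did not pass (limma adjusted p = 0.415 at 3 d and 0.0803 at 14 d).

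Tnfrsf19, an orphan receptor known from neural progenitors and as a partner of the Nogo receptor, was at 9.08 and 8.93 in naive tissue, 9.47 and 9.13 at 3 d and 9.56 and 9.32 at 14 d. The smallest stroke value lay just above the largest naive one. It rose by 0.43 ± 0.12 at 14 d (limma adjusted p = 0.0375). That call ended when array medians were centred, with no filter, with age left out of the model, or without any one of the 6 arrays.

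The remaining tested receptors did not pass at either time. Tnfrsf11b encodes osteoprotegerin, a soluble decoy that binds the ligands encoded by Tnfsf11 and Tnfsf10. Its levels were 9.23 and 8.91 in naive tissue, 9.22 and 9.04 at 3 d and 9.24 and 8.88 at 14 d, which placed the young array above the aged one at each time and showed changes after stroke of no more than 0.06 ± 0.12. Tnfrsf4, Tnfrsf9 and Tnfrsf26 changed by between -0.20 and 0.33 at 3 d and between -0.08 and 0.15 at 14 d. Tnfrsf14, whose product also acts as a switch on lymphocytes, changed by -0.13 ± 0.21 at 3 d and 0.58 ± 0.21 at 14 d (limma adjusted p = 0.695 and 0.0824). With either 3 d array left out the latter had a limma adjusted p = 0.0439, and with the young 14 d array left out it was 0.99 (limma adjusted p = 0.000519). It was 0.16 with the aged 14 d array left out (limma adjusted p = 0.511) and 0.37 with the aged naive array left out (limma adjusted p = 0.505). Its levels were 6.84 and 6.82 in naive tissue, 6.71 and 6.70 at 3 d and 7.00 and 7.82 at 14 d, so that the aged 14 d array stood apart. Tnfrsf8, Tnfrsf17, Tnfrsf18 and Cd27, receptors of lymphocytes, ranged from 5.18 to 6.43 and were not tested.

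Of the ligands, Tnfsf13b was the one called at both times, and its fitted change over both ages was the largest. In aged rats at 14 d its rise of 1.88 was close to that of Tnfsf10, 1.89, and with the young 14 d array left out Tnfsf10 came first (1.90 against 1.83). It encodes BAFF, a survival factor for B cells that myeloid cells and astrocytes can make. Its level was 6.49 and 6.33 on the young and aged naive arrays, 7.91 and 7.96 at 3 d and 7.68 and 8.21 at 14 d. The stroke arrays lay far above the naive ones, whose values were below the 40th percentile. The rise was 1.53 ± 0.17 at both times, a 2.88-fold change at 3 d and a 2.9-fold change at 14 d (limma adjusted p = 0.000969 and 0.000984). Of the receptors of BAFF, those encoded by Tnfrsf13b and Tnfrsf13c were not analysed here, and Tnfrsf17 lay between 5.72 and 6.04.

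Tnfsf10 encodes TRAIL, a death ligand that interferons are known to induce. It was at 6.99 and 6.80 in naive tissue, 7.21 and 6.99 at 3 d, and 7.72 and 8.69 at 14 d. The aged 14 d array stood far above all others and the young 14 d array was second. The change was 0.20 ± 0.27 at 3 d (limma adjusted p = 0.615) and 1.31 ± 0.27 at 14 d, a 2.48-fold rise (limma adjusted p = 0.013). The 14 d call ended without the aged naive array (limma adjusted p = 0.157). The size of the rise depended on which 14 d array was left out. It was 0.72 without the aged and 1.90 without the young 14 d array. With 1 array for each age at 14 d, age and array cannot be told apart. Between 3 d and 14 d the level differed by 1.11 ± 0.27, which did not pass (limma adjusted p = 0.0959) but did so without the young 3 d array (1.41, limma adjusted p = 0.0202) or the young 14 d array (1.69, limma adjusted p = 5.36e-05). It was 0.52 with the aged 14 d array left out (limma adjusted p = 0.0875) and 0.81 with the aged 3 d array left out (limma adjusted p = 0.301).

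Tnfsf4, a costimulatory ligand whose receptor on T cells is encoded by Tnfrsf4, was at 6.03 and 5.85 in naive tissue, 6.10 and 6.11 at 3 d and 6.43 and 6.67 at 14 d. Only the aged 14 d array reached the 40th percentile, so its rise of 0.61 ± 0.14 at 14 d (limma adjusted p = 0.0188) came almost wholly from values near the low end. The adjusted p was 0.22 when the aged naive array and 0.0826 when the aged 14 d array was left out, and it was 0.0508 with trended and robust variances. Tnfsf13, which encodes APRIL, a relative of BAFF, was at 8.65 on both naive arrays, 8.96 and 9.10 at 3 d and 8.88 and 8.95 at 14 d. Every stroke array lay above the naive ones, by little, and the changes of 0.38 ± 0.12 and 0.26 ± 0.12 did not pass (limma adjusted p = 0.0572 and 0.146). The 3 d change passed without either 14 d array (limma adjusted p = 0.0289), with the 60th percentile filter (limma adjusted p = 0.0395) and with trended and robust variances (limma adjusted p = 0.0323). Tnfsf15, a ligand of endothelial and myeloid cells, and Tnfsf9, a T cell costimulator, did not pass at either time and changed by between -0.21 and 0.25.

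Tnf itself remained low. Its values were 5.94 and 6.26 in naive tissue, 6.17 and 6.47 at 3 d and 6.45 and 6.27 at 14 d. All 6 lay below the 40th percentile, and the conditions overlapped. A value in this part of the scale does not show that the transcript was absent. Tnfsf11, the ligand that drives osteoclasts, was between 5.82 and 6.11, and Cd70, the ligand of Cd27, between 5.48 and 5.99. In the bulk tissue, fewer cells of a type and less RNA per cell cannot be told apart.

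**Figure D2:**
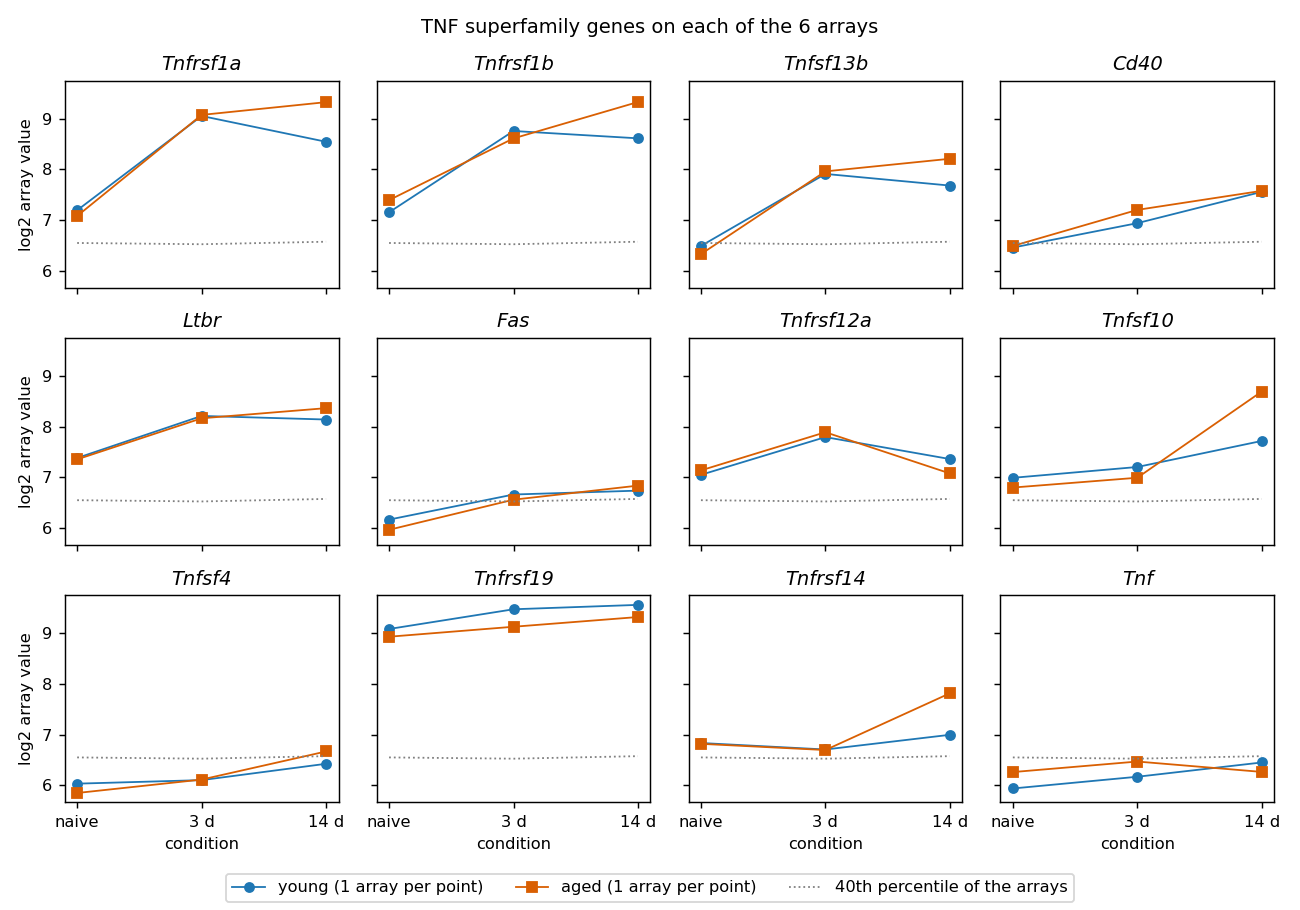
Log2 array value (vertical axis) in naive tissue and at 3 d and 14 d after stroke (horizontal axis) for the 10 members called in at least 1 comparison and for Tnfrsf14 and Tnf; each point is 1 array, circles are young and squares aged rats, and the dotted line is the mean of the 2 arrays' 40th percentiles. Tnfrsf1a rises from 7.20 and 7.08 to 9.05 and 9.08 at 3 d, Tnfsf10 and Tnfrsf14 rise most on the aged 14 d array, and Tnf stays under the dotted line throughout.

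Counted over all 32 members without a filter, all 4 stroke arrays lay above both naive arrays for 12 members and below them for 2 (Cd70 and Tnfrsf18). Among all 14497 genes the shares were 19% above and 24.5% below. Among the 20 tested members 10 lay above and none below, against 23.8% and 28.8% of the genes tested. Cd40, Fas, Tnfsf13b and Tnfsf4, among these 10, entered the test through stroke arrays alone, so the filter favoured this outcome for them. The gap between the lowest stroke and the highest naive value was small for Tnfsf10 (0.0015) and Tnfrsf19 (0.044). It was also small for the untested Tnfsf11 (0.009) and Tnfrsf10b (0.026), which count among the 12.

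Some members are close neighbours in the genome. In the GRCr8 annotation, Ltbr and Tnfrsf1a have 1 coding gene between them, as have Cd27 and Ltbr. The 2 of these that were tested both rose, whereas Cd27 stayed between 5.71 and 6.43. Tnfrsf1b and Tnfrsf8 are adjacent. Tnfrsf1b rose, whereas Tnfrsf8, which was not tested, stayed between 5.18 and 5.80, below the 40th percentile on every array. Tnfsf12 and Tnfsf13 are adjacent too, and neither passed. Lta, Tnf and Ltb follow each other with no coding gene between, and all 3 lay below the 40th percentile on every array. Adjacent genes can share transcripts and the probe positions were not examined.

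No member differed between 14 d and 3 d with limma, against 3.16% of all tested genes (1.34% higher and 1.82% lower). At an unadjusted p under 0.05 there were 5 higher and 1 lower among the 20, and 1281 in either direction among the 10947 genes. A p-value that misses the threshold does not show that the levels were the same. Leaving out the young 3 d array gave 1 called member (Tnfsf10), and leaving out the young 14 d array gave 3 (Tnfrsf12a, Tnfrsf14 and Tnfsf10).

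Age was compared across the 3 pairs of arrays together and within each pair. Over all 3 pairs, none of the 20 members passed with limma and 0% of all genes did. Tnfrsf11b (-0.28 ± 0.10) and Tnfrsf19 (-0.25 ± 0.10) were the members lower in aged rats at an unadjusted p under 0.05, each lower in the aged array of all 3 pairs, and both had a limma adjusted p = 0.631. Over all genes, 852 had an unadjusted p under 0.05.

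At 14 d the aged array was higher than the young one by at least 1.5-fold for 4 of the 20 members, Tnfsf10, Tnfrsf14, Tnfrsf1a and Tnfrsf1b, against 5.76% of all tested genes, and lower by as much for none, against 1.82%. In naive tissue and at 3 d no member differed by that much in either direction. The shares of all genes were 0.612% higher and 0.119% lower in naive tissue and 0.457% and 1.1% at 3 d. The rise against naive at 14 d was 1.89 in aged and 0.73 in young rats for Tnfsf10, 0.996 and 0.16 for Tnfrsf14, 2.24 and 1.35 for Tnfrsf1a, 1.93 and 1.46 for Tnfrsf1b and 1.88 and 1.19 for Tnfsf13b. For Cd40 it was 1.09 and 1.10.

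A further limma fit tested the age difference at 14 d against the age differences of the other 2 pairs. It called 0.42% of all genes, each higher in aged rats, and no member. The nearest were Tnfrsf14 (0.82 ± 0.14, limma adjusted p = 0.0549), Tnfsf10 (0.97 ± 0.17, limma adjusted p = 0.0572) and Tnfrsf1a (0.78 ± 0.14, limma adjusted p = 0.0645), followed by Tnfrsf1b (0.72 ± 0.17, limma adjusted p = 0.103) and Tnfsf13b (0.53 ± 0.15, limma adjusted p = 0.128). These 5 of the 20 were the members with an unadjusted p under 0.05, as were 2344 of the 10947 genes tested. The shares are close, so this count does not set the members apart from all genes. The same fit for naive tissue and for 3 d called 0% of genes and no member, and no member had an unadjusted p under 0.05 there, whereas 74 and 293 of all genes did.

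**Figure D3:**
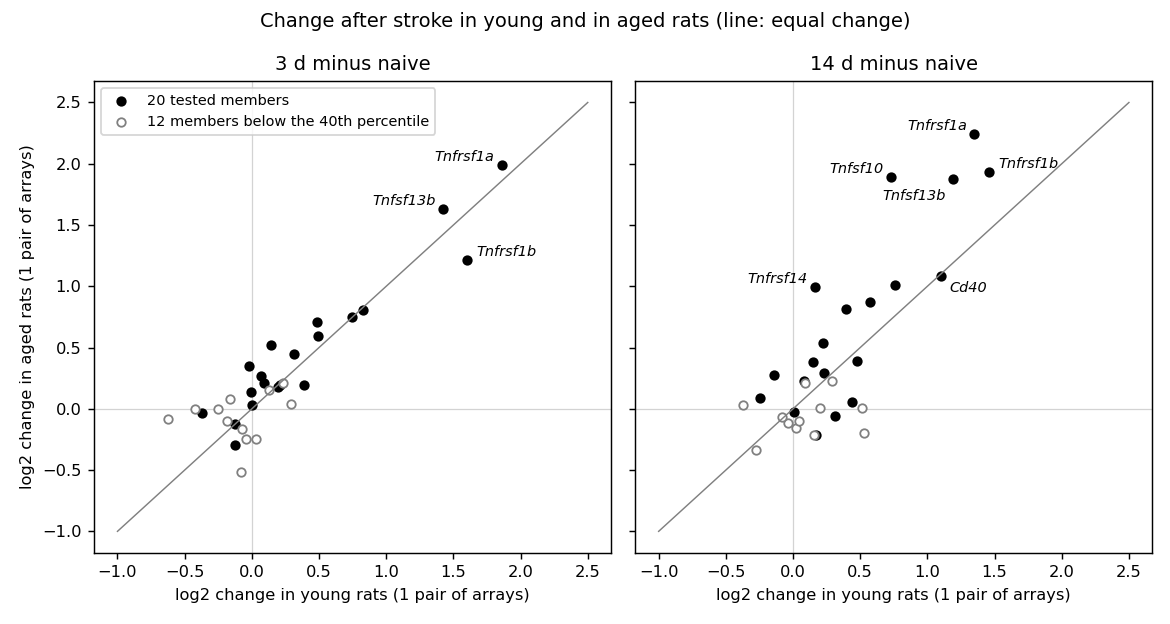
Log2 change against naive tissue in young rats (horizontal axis) and aged rats (vertical axis) at 3 d (left) and 14 d (right); each point is 1 of the 32 members measured on 1 pair of arrays per age, filled if tested, and the line marks equal change. At 3 d Tnfrsf1a (1.86 in young and 1.99 in aged rats) lies near the line and Tnfrsf1b (1.60 and 1.22) below it. The untested Tnfrsf8 (-0.62 and -0.08), Lta and Cd27 and the tested Tnfrsf26 (0.15 and 0.52) lie off it too. At 14 d Tnfsf10 (0.73 and 1.89), Tnfrsf14 and Tnfrsf1a lie above the line. The untested Lta (0.53 and -0.20) and Tnf and the tested Tnfsf9 (0.17 and -0.22), Tnfsf15 and Tnfrsf12a lie below it.

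The cell type markers were read as whole lists beside these values. Of all tested genes, 14.4% were called higher at 3 d and 13.6% at 14 d, and 7.87% and 11.4% were called lower. All 8 markers of microglia and macrophages were called higher at both times with limma. Their mean level was 8.19 on the young and 8.62 on the aged naive array, 10.30 and 10.39 at 3 d, and 10.39 and 10.99 at 14 d. The aged 14 d array was the highest here, as for Tnfrsf1a, Tnfrsf1b, Tnfsf10 and Tnfsf13b. It was also the highest for the means of the fibroblast and meningeal (9.96), astrocyte (11.08), B cell (6.68) and natural killer cell (6.21) lists. In naive tissue the aged array was the higher for the microglia and macrophage list and Tnfrsf1b, but the lower for Tnfrsf1a, Tnfsf10 and Tnfsf13b. Neuron markers lay between 11.68 and 11.73 in naive tissue and between 11.20 and 11.37 after stroke, with 1 of 6 called lower at 3 d and 4 of 6 at 14 d. Of 6 astrocyte markers 2 were called higher at 3 d and 4 at 14 d, of 5 measured endothelial markers 3 at each time, and of 6 fibroblast and meningeal markers 5 and 6. Of 5 measured oligodendrocyte markers 1, Mog, was called lower at both times. The part of these cell types in the changes of the members was not tested.

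Most, but not all, markers of lymphocytes were low. Of 8 T cell markers, 6 lay below the 40th percentile on all 6 arrays, among them Cd3d, Cd3e and Cd3g, and the list mean stayed between 5.48 and 5.77. Of 6 natural killer cell markers 3 were below it on every array and none passed, but Gzmb lay between 6.96 and 7.46, above it on every array, and Nkg7 was at 7.49 on the aged 14 d array and at most 6.27 on the others. Of 3 measured B cell markers Ms4a1 was below it on every array, Cd79b was above it on every array (6.67 to 6.96) and did not pass, and Cd22, a gene also found in microglia, rose by 1.92 ± 0.15 at 14 d (limma adjusted p = 0.00021). Of 7 neutrophil markers, S100a8, S100a9, Mpo and Cxcr2 stayed below it, and Mmp8 and Csf3r were called higher at both times. The remaining one, Elane, changed by -0.32 ± 0.18 at each time and did not pass (limma adjusted p = 0.239 and 0.242). Cd22 and Mmp8 lay below the 40th percentile on both naive arrays and entered the test through stroke arrays alone. Of the members known from lymphocytes, Cd27, Cd40lg, Cd70, Faslg, Lta, Ltb, Tnfrsf8, Tnfrsf17 and Tnfrsf18 were below the percentile on every array. Tnfrsf14 and Tnfrsf1b, the latter also known from microglia and endothelium, reached it on 6 arrays, Tnfrsf4 on 5, Tnfsf9 on 2 and Tnfrsf9 on 1.

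Of 14 measured adaptors and ubiquitin ligases Ripk1, the kinase that links death domain receptors to survival or death, was the one called at either time, higher by 0.95 ± 0.14 at 3 d and 1.01 ± 0.14 at 14 d (limma adjusted p = 0.00312 and 0.00235). For this list and those below, the shares of all tested genes called higher were 14.4% at 3 d and 13.6% at 14 d. How the calls of the genes in these lists depend on single arrays was not examined. The 1 of 14 here did not exceed them. The list median was 0.13 at 3 d and 0.17 at 14 d. Tradd, Fadd and the TRAF genes measured (Traf2, Traf3, Traf4 and Traf6) did not pass, with changes between -0.21 and 0.46.

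Among 7 measured genes of death execution and its inhibitors, 3 rose at both times and none fell. Ripk3, the kinase of necroptosis, was at 6.04 and 6.15 in naive tissue, 7.95 and 7.80 at 3 d, and 6.82 and 7.96 at 14 d. It rose by 1.78 ± 0.27 at 3 d and 1.30 ± 0.27 at 14 d (limma adjusted p = 0.00385 and 0.0135), with the young 14 d array nearest to the naive ones. Casp8, the caspase recruited by Fadd, rose by 1.43 ± 0.24 and 1.67 ± 0.24, and Bid, which carries its signal to mitochondria, by 0.61 ± 0.15 and 0.73 ± 0.15. Ripk3 and Casp8 lay below the 40th percentile on both naive arrays. Cflar, the inhibitor of Casp8, changed by 0.34 ± 0.15 and 0.46 ± 0.15 and did not pass (limma adjusted p = 0.147 and 0.0574).

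Of 10 measured NF-kappaB kinases and subunits, 3 rose at 3 d and 4 at 14 d, and none fell. They were the subunits Nfkb1 (0.59 ± 0.13 at 3 d and 0.81 ± 0.13 at 14 d), Nfkb2 (0.58 ± 0.14 and 0.81 ± 0.14) and Rela (0.59 ± 0.13 and 0.75 ± 0.13), and at 14 d the adaptor Tab2 (0.41 ± 0.12). The kinases Chuk and Ikbkb and the regulatory subunit of their complex, Ikbkg, did not pass. Of 9 measured NF-kappaB inhibitors and related regulators 3 rose at each time. Nfkbia, which holds NF-kappaB in the cytoplasm and is itself a target of it, rose by 1.01 ± 0.15 and 0.96 ± 0.15, Nfkbiz by 0.71 ± 0.13 and 0.65 ± 0.13, and Otulin, which removes linear ubiquitin, by 0.51 ± 0.14 and 0.47 ± 0.14.

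Of 7 measured genes that cut ligands and receptors from the membrane or control this, 6 rose at 3 d and 5 at 14 d. Of all tested genes 14.4% and 13.6% were called higher. Adam17, the protease that releases TNF and sheds its receptors, was at 8.07 and 8.10 in naive tissue, 9.19 and 8.90 at 3 d, and 8.79 and 9.06 at 14 d. It rose by 0.96 ± 0.16 at 3 d and 0.83 ± 0.16 at 14 d. Rhbdf2, which brings Adam17 to the cell surface, rose by 1.07 ± 0.15 and 0.89 ± 0.15. Rhbdf2 lay below the 40th percentile on both naive arrays and entered the test through stroke arrays alone. Furin, which activates Adam17 and cuts several ligands of the family, rose by 0.87 ± 0.14 and 0.66 ± 0.14. Timp3, an inhibitor of Adam17, rose as well, by 0.59 ± 0.12 and 1.08 ± 0.12. Rhbdf1 (0.52 ± 0.13) and Sppl2b (0.60 ± 0.15) passed at 3 d alone and Sppl2a (0.51 ± 0.13) at 14 d alone.

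Genes that TNF is known to induce went different ways, and all of them respond to other signals too. Of 19 listed, 17 were measured and 12 tested, and 6 rose at 3 d and 6 at 14 d. Tnfaip8, Cxcl1, Ptgs2 and Nos2 were tested and did not pass at either time, with changes between -0.23 and 0.39. Ccl2, a chemokine for monocytes, rose by 4.52 ± 0.19 at 3 d and 2.86 ± 0.19 at 14 d. Cxcl10 (1.70 ± 0.20 and 2.92 ± 0.20), Irf1 (1.08 ± 0.17 and 1.51 ± 0.17), Csf1 (1.06 ± 0.15 and 1.36 ± 0.15) and the adhesion molecule Icam1 (0.59 ± 0.13 and 0.96 ± 0.13) rose at both times. Cxcl10 lay below the 40th percentile on both naive arrays and entered the test through stroke arrays alone. Mmp9 rose at 3 d alone (0.94 ± 0.21), Vcam1 at 14 d alone (1.06 ± 0.15), and Sod2, the mitochondrial superoxide dismutase, fell by 0.59 ± 0.15 at 14 d. Il6, Sele, Ccl20, Cxcl2 and Mmp3 lay below the 40th percentile on all 6 arrays. From 3 d to 14 d, Cxcl10 and Vcam1 rose and Ccl2 and Mmp9 fell. Of the relatives of the family outside the symbol rule, Relt and Ngfr were tested and did not pass at either time.

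**Figure D4:**
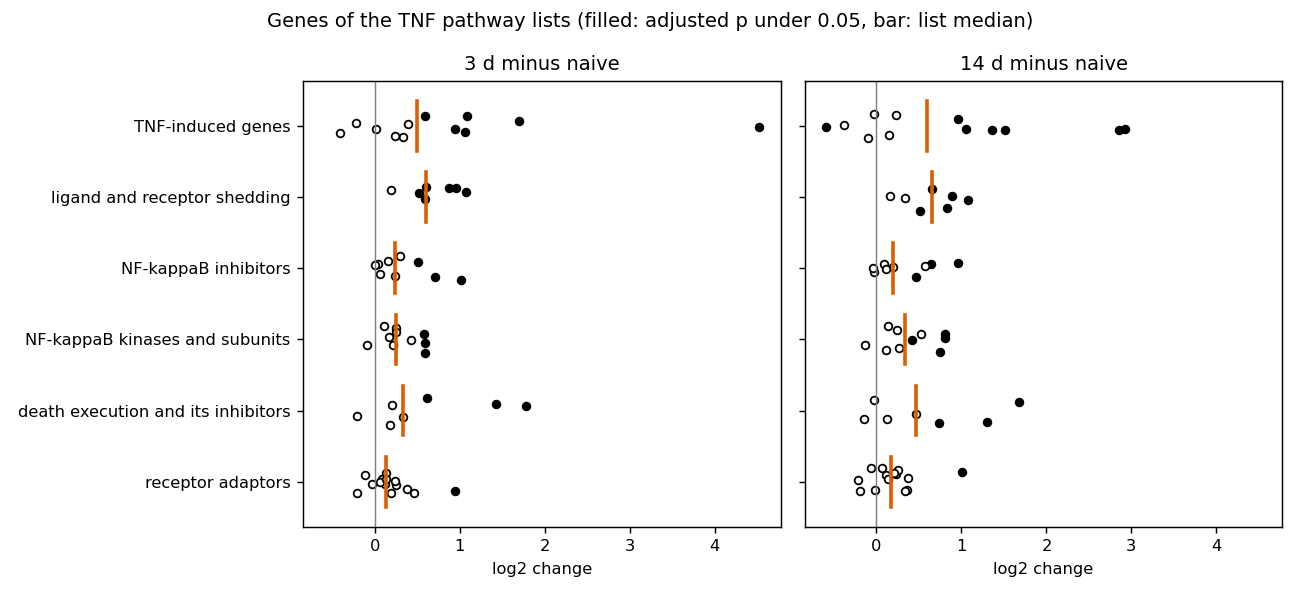
Log2 change against naive tissue at 3 d (left) and 14 d (right) of the tested genes of 6 TNF pathway lists; each point is 1 gene (limma estimate), filled at an adjusted p under 0.05, the bar is the list median and the vertical spread is only for legibility. The medians of the shedding list are 0.60 and 0.66, those of the adaptors 0.13 and 0.17, and the point at 4.52 is Ccl2.

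The list medians at 3 d and 14 d were 0.34 and 0.46 for death execution and 0.25 and 0.34 for kinases and subunits. They were 0.23 and 0.19 for NF-kappaB inhibitors and related regulators, 0.60 and 0.66 for shedding and 0.49 and 0.60 for TNF-induced genes. Over all tested genes the medians were -0.03 and -0.05.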

How the data were processed

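RNA was measured once per group, on 6 arrays of pooled RNA. The deposited table holds log2 values, by their range, 1 for each probe set on each array. The submitters' processing notes name R 2.14.0 and affy. How background was corrected, probes summarised and arrays normalized is not given in the sources used here. The array medians lay between 7.09 and 7.15, and Pearson correlations between arrays over 28826 probe sets between 0.962 and 0.995.

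Of 28826 probe sets, the platform annotation gave 15209 exactly 1 symbol and 306 several, and 13311 stayed without a name here. All 32 members matched RefSeq (GRCr8) by gene ID. Tnfrsf11a and some other family genes were not analysed here. A gene was tested if a probe set of its own reached the 40th percentile of any array, and was represented by its probe set of highest mean. Limma 3.58.1 in R 4.3.3 fitted age + time over the 6 arrays with 2 residual degrees of freedom (5.56 prior), and p-values were adjusted by Benjamini-Hochberg over 10947 genes. With 1 pool a group, the error is the departure of the 6 values from additive age and time effects, and the p-values measure nothing of the spread between animals. Scan dates and batches were not given, so batch and group cannot be told apart.

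The members, pathway lists and markers were chosen with earlier results of these data known, and the motifs and the age fit at single times after the values of the members were seen. Members called in at least 1 comparison and the main TNF, Fas, lymphotoxin, CD40, TRAIL, RANKL and TWEAK ligands and receptors are named, the other members by range and count. In each pathway list up to 4 called genes with the largest change are named, and other members and list genes given with values (Tnfrsf14, Tnfsf13, Tnfrsf21, Sppl2a, Sppl2b, Rhbdf1, Icam1, Tradd, Fadd, Cflar and the genes below the percentile) were named after their values were seen. So were Tnfaip8, Cxcl1, Ptgs2 and Nos2.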

Additional observations from a re-analysis of the deposited data

How the results depend on the processing

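The 13 alternatives were median centring, quantile normalization, no filter, a 60th percentile filter, trended and robust variances, the other factor left out of the model, the mean of probe sets and each array left out in turn. They were followed for the members and for the counts of all genes, and not for single genes of the pathway and marker lists. Leaving out 1 array gave 3 to 8 called members at 3 d, 4 to 9 at 14 d, 0 to 3 for 14 d against 3 d and 0 for age, with 746 to 3726, 752 to 3470, 221 to 573 and 0 to 2 genes called in all. With trended and robust variances, 1 member passed for 14 d against 3 d (Tnfrsf12a, limma adjusted p = 0.0429) and 1 gene of all passed for age. No member that was called under any setting changed direction under the alternatives run. Cd40 and Fas left the test under the stricter filter, which ended their calls at both times, as did Tnfsf4 at 14 d. The cause of the other lost calls was not tested. With medians centred, 1336 genes were higher and 1686 lower at 14 d, against 1491 and 1243 as deposited. No paired analysis was possible because each group is 1 array and the labels give no replicate numbers. Members near the 40th percentile, Fas, Tnfsf4 and the naive values of Cd40 and Tnfsf13b, have the least certain sizes.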
